A study of Mus musculus with 2 samples.

Results

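Chromatin loops that spanned more than 1 Mb on the autosomes of mouse embryonic stem cells were examined in a Micro-C loop list. A loop is a pair of genomic intervals, its anchors, that the authors' caller found in contact above their surroundings, and its span is measured from the midpoint of one anchor to that of the other. Of the 4982 listed loops, 4858 lay on chromosomes 1 to 19, and 405 of these (8.34%, Wilson 95% interval 7.59 to 9.15%) had a span over 1 Mb. The remaining 4453 autosomal loops, of up to 1 Mb, are the set they are compared with.

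Micro-C maps contacts between crosslinked chromatin fragments that micrococcal nuclease has cut. Per the labels, the cells were wild-type V6.5, a male pluripotent mouse line grown on gelatin. They received 50 nM of siGLO, a control transfection reagent, and were collected 48 h later. The 2 samples formed a single group, siControl, with 1 loop list between them and no value per sample, so no spread between replicates and no test was available, and the read depth is unknown. Intervals are for counting error among listed loops or genes alone. All coordinates are in mm10, and the lower and upper anchors of a loop are those at lower and higher coordinates.

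Most mammalian loops are thought to form when the ring-shaped cohesin complex extrudes chromatin until it meets CTCF, a DNA-binding protein that halts it. Contacts over very long distances are also known between developmental genes that are silent in embryonic stem cells and are held by Polycomb complexes, which mark such genes with repressive histone modifications, often at promoters rich in CpG. Neither cohesin, CTCF nor Polycomb was measured in this list.

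Of the 405 loops, 5 had a gene of the developmental regulator lists (transcription factors and signalling genes of embryonic patterning) at each anchor. Promoters of 6 genes at 3 of these loops, from RefSeq for GRCm38.p6 and running from 250 bases before to 50 bases after the gene start, are shown to let the ends of these 3 loops be compared by their CpG content. They are written 5′ to 3′ on the strand of the gene, and capitals mark CG dinucleotides, the motif counted, which reads alike on both strands.
Dlx2: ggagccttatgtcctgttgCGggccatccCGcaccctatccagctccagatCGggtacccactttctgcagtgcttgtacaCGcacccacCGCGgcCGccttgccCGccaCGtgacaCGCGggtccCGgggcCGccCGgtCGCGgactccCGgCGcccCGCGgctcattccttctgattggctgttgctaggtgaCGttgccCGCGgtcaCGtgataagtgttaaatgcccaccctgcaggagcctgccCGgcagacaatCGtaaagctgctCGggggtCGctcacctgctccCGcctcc
Hoxd13: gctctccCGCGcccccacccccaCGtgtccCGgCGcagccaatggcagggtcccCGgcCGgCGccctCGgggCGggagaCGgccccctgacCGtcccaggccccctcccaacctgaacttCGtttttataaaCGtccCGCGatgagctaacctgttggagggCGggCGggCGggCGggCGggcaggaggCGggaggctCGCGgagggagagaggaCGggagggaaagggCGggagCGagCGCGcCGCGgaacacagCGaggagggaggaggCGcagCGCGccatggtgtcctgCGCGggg
Nkx2-1: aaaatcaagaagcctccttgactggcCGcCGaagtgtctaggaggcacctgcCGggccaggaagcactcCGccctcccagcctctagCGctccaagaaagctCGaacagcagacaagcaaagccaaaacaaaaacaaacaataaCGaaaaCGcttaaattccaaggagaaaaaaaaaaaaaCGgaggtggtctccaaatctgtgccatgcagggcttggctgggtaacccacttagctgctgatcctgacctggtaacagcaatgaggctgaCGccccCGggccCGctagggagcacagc
Foxa1: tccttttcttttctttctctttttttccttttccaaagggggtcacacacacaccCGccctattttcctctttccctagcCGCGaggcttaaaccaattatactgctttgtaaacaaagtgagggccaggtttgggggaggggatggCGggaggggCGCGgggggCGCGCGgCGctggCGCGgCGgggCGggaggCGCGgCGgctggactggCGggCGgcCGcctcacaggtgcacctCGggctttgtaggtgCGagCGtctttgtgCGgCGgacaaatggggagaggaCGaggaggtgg
Hmx3: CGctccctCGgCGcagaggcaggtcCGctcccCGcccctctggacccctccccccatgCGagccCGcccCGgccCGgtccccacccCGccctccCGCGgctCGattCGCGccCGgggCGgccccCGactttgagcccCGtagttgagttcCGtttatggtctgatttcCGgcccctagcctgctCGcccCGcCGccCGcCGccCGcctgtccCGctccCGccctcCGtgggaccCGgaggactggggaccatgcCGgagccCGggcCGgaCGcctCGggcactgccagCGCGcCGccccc
Nkx1-2: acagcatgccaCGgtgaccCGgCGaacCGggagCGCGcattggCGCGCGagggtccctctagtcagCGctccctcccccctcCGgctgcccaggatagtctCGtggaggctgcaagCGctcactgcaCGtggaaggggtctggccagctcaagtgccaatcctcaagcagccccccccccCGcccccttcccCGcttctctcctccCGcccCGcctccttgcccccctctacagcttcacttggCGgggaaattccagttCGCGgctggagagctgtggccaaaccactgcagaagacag

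These promoters lie at chr2:71546705-71547004 (minus strand, Dlx2), chr2:74667975-74668274 (plus, Hoxd13), chr12:56536859-56537158 (minus, Nkx2-1), chr12:57546062-57546361 (minus, Foxa1), chr7:131542713-131543012 (plus, Hmx3) and chr7:132599588-132599887 (minus, Nkx1-2). Each of the 6 gene starts lay inside its loop anchor. The windows of Hmx3 and Hoxd13 were the richest, with 39 and 37 CG. Dlx2 had 29, Foxa1 26 and Nkx1-2 21. Neighbouring regulators at the same anchors, not printed, had 27 (Dlx1, beside Dlx2), 16 (Evx2, beside Hoxd13) and 2 (Hmx2, beside Hmx3), so windows within 1 anchor could differ as much as those at opposite ends. Nkx2-1, with 12, lay below the median of 15 CG over the 16456 autosomal genes with a listed promoter, of which 40.2% had 20 or more. CpG content thus varied widely among genes at the ends of these loops. Over all 17 regulators at an anchor of a loop over 1 Mb that had a listed promoter, the median was 21 CG and 52.9% had 20 or more. Over the 310 listed regulators of the genome the median was 20 and 51.6% had 20 or more, so the regulators at these anchors were close to regulators in general.

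The 405 loops went with coarse pixels, the squares of the contact map at which loops were listed. Loops of 25 kb pixels made up 194 of them, loops of 10 kb pixels 202, and loops of 5 kb pixels 9. Of all autosomal loops of 25 kb pixels 30.5% (27.1 to 34.2%) exceeded 1 Mb, against 6.83% (5.98 to 7.80%) at 10 kb and 0.711% at 5 kb. How far the caller searched at each pixel size is unstated, so a greater number of long contacts at coarse pixels and a wider search there cannot be told apart.

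Spans had a median of 1360 kb, with quartiles at 1125 and 1800 kb, and the longest reached 6700 kb. Most were close to the limit: 246 spanned up to 1500 kb, 84 more up to 2000 kb, 47 up to 3000 kb and 28 over 3000 kb. The medians were 1675 kb at 25 kb pixels, 1210 kb at 10 kb and 1035 kb at 5 kb, and all 28 loops over 3000 kb were of 25 kb pixels. Just inside the limit lay 4 loops of 1010 kb, with peak scores of 3.70 to 8.90, and just outside it 13 loops of exactly 1000 kb, with peak scores of 2.81 to 36.8.

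**Figure D1:**
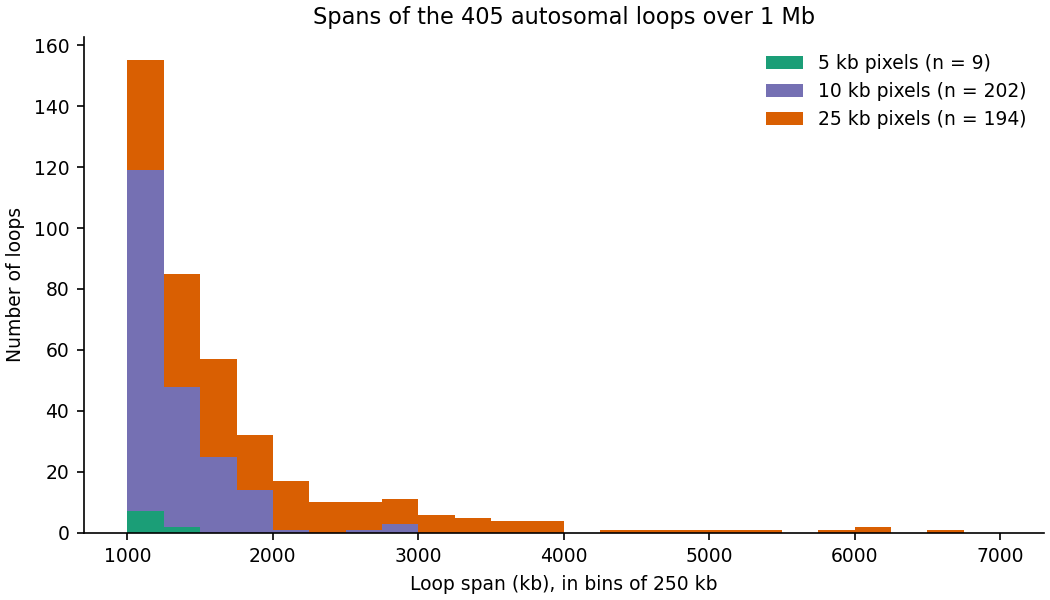
Number of autosomal loops over 1 Mb (vertical axis) by span in kb (horizontal axis, bins of 250 kb), stacked by pixel size (5 kb, n = 9; 10 kb, n = 202; 25 kb, n = 194). The counts fall away from the limit of 1000 kb, and beyond 3000 kb the 28 loops are all of 25 kb pixels.

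Chromosomes differed in how many such loops they held. Chromosome 3 had the most, 43, which was 14.8% (11.2 to 19.4%) of its loops, and 34 of the 43 were of 25 kb pixels. Chromosome 13 had 35, or 0.291 per Mb, the highest density. Chromosome 17 had 5, or 3.50% of its loops and 0.0527 per Mb, the lowest density. All autosomes together had 0.165 per Mb.

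Within each pixel size, loops over 1 Mb had higher peak scores, the caller's own score with no unit, than shorter loops. At 25 kb pixels the median was 4.48 (95% interval of the median 4.32 to 4.72) over 1 Mb and 3.59 (3.53 to 3.70) up to 1 Mb. At 10 kb it was 4.51 (4.34 to 4.75) over 1 Mb and 3.95 (3.90 to 3.99) up to 1 Mb. At 5 kb it was 6.62 (5.82 to 8.90) for the 9 loops over 1 Mb and 4.87 (4.79 to 4.95) up to 1 Mb. These pooled intervals did not overlap at any pixel size. Below 1 Mb, medians already rose with span at 10 and 25 kb pixels. At 10 kb they were 3.75, 3.95 and 4.23 for spans up to 250, 500 and 1000 kb. At 25 kb they were 3.37, 3.53 and 3.755. From the last class to that of 1000 to 1500 kb, intervals overlapped at 10 kb (4.15 to 4.31 and 4.30 to 4.73). They also overlapped at 25 kb (3.59 to 3.90 and 3.84 to 4.23). At 5 kb they did not (4.82 to 5.73 and 5.82 to 8.90).

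The value of the peak pixel, the contact signal itself, moved otherwise. Its median was 10.4 over 1 Mb and 15.4 up to 1 Mb at 25 kb pixels, 6.48 and 6.77 at 10 kb, and 5.91 and 4.89 at 5 kb. A higher score at 10 and 25 kb pixels thus did not come with a higher pixel value. Both measures come from the same map, whose normalization is unknown, and the part of distance in either was not tested. Among the 194 loops of 25 kb pixels the median score was 4.04 up to 1500 kb, 4.38 up to 2000 kb, 4.91 up to 3000 kb and 5.59 beyond. Spearman's rho with span over these loops was 0.387 for the score and -0.337 for the pixel value. Over the 202 loops of 10 kb pixels the rho was 0.0742 and -0.00975. The loops of each set share 1 map and partly overlap, so these are descriptions.

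**Figure D2:**
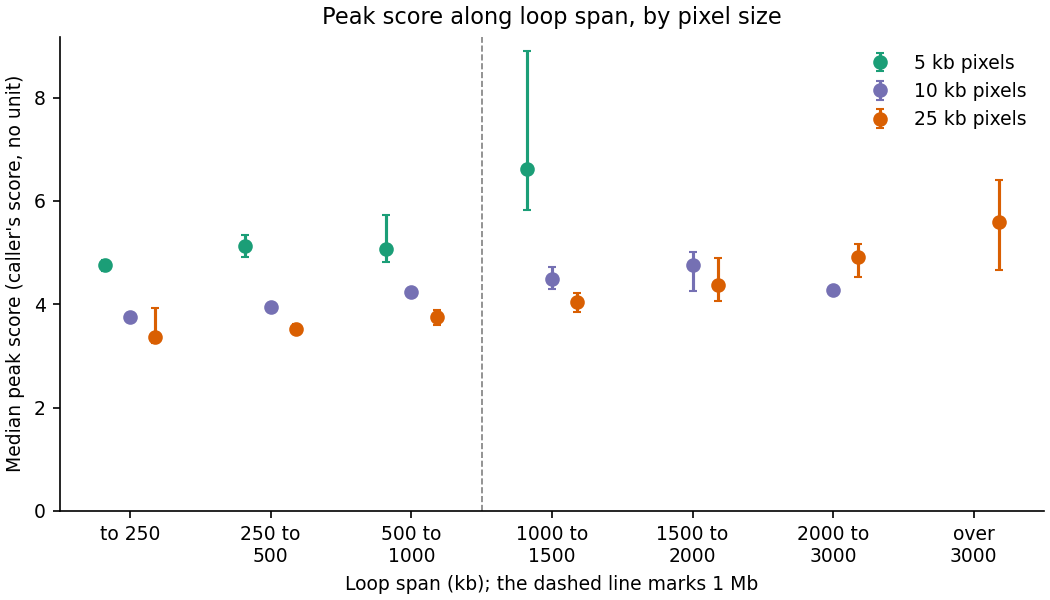
Median peak score (vertical axis, caller's score with no unit) by span class in kb (horizontal axis) for loops of 5, 10 and 25 kb pixels, with bars for 95% intervals of the median over loops. To the right of the dashed line at 1 Mb, loops of 25 kb pixels go through 4.04, 4.38, 4.91 and 5.59. To its left they already rise through 3.37, 3.53 and 3.755. The 10 kb class of 2000 to 3000 kb holds 5 loops and has no bar.

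Genes were found at both ends of long loops more often than at both ends of shorter ones, and the difference lay in the 25 kb pixels. An end of a protein-coding gene record fell inside both anchors of 46 loops over 1 Mb (11.4%, 8.62 to 14.8%), against a background of 4.87% for loops up to 1 Mb (217 of 4453). At 1 anchor it fell in 105 (25.9%), against 28.0%, and at neither in 254 (62.7%), against 67.1%. At 25 kb pixels, 39 of 194 loops over 1 Mb (20.1%, 15.1 to 26.3%) had gene ends at both anchors, against 47 of 442 up to 1 Mb (10.6%, 8.09 to 13.9%). At 10 kb pixels these were 7 of 202 (3.47%, 1.69 to 6.98%) against 137 of 2755 (4.97%, 4.22 to 5.85%), and the intervals overlapped.

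Whether a gene lies at an anchor depends on the rule for position. With anchors widened by 5 kb on each side, gene ends at both anchors became 14.8% over 1 Mb and 14.4% up to 1 Mb, so the pooled difference was lost. The pooled values hid opposite differences, 24.2% (18.7 to 30.7%) against 16.3% (13.1 to 20.02%) at 25 kb pixels, whose intervals overlapped, and 6.44% against 14.01% at 10 kb pixels, where long loops were lower. With any overlap of a gene record counted, the shares were 31.1% (26.8 to 35.8%) over 1 Mb and 27.5% (26.2 to 28.9%) up to 1 Mb, whose intervals overlapped, with 43.8% against 29.2% at 25 kb pixels and 20.3% against 28.5% at 10 kb pixels. With start sites of genes that have a listed promoter, the shares were 5.19% over 1 Mb and 1.75% up to 1 Mb. At 25 kb pixels they were 8.25% (5.14 to 12.98%) and 5.20% (3.49 to 7.69%), again overlapping. At 10 kb pixels they were 2.48% (1.06 to 5.66%) and 1.56% (1.16 to 2.10%), also overlapping, with long loops the higher under this rule. Loops of 25 kb pixels were 47.9% of those over 1 Mb and 9.93% of the others, so pooled shares also carry this mix.

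**Figure D3:**
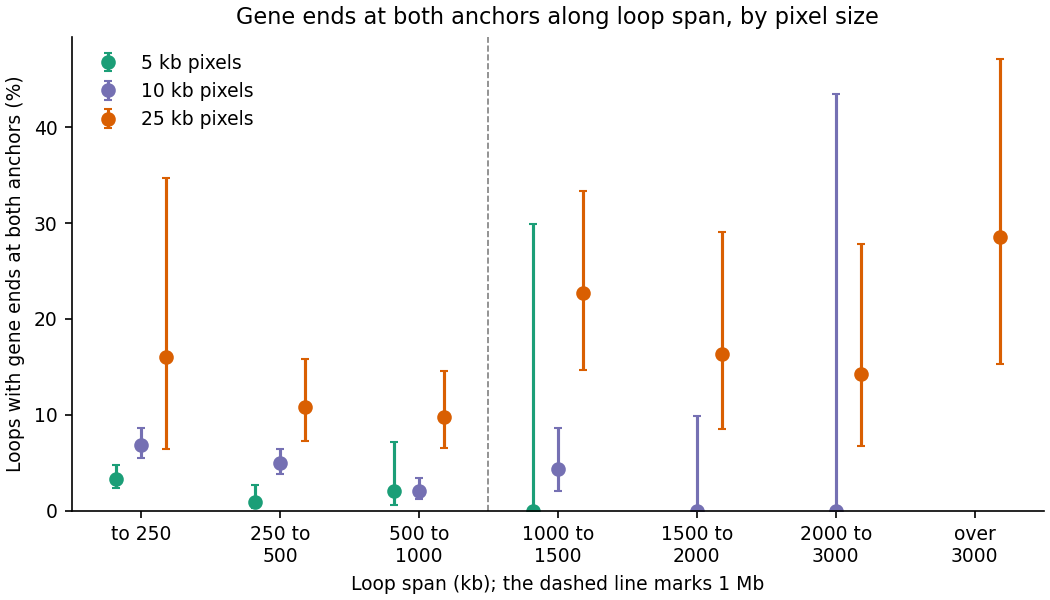
Percentage of loops with a protein-coding gene end in both anchors (vertical axis) by span class in kb (horizontal axis) for loops of 5, 10 and 25 kb pixels, with Wilson 95% intervals as bars. The 25 kb loops lie above the others in every class, and their 8 of 28 loops over 3000 kb give 28.6%.

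Long loops mostly lay over gene-poor chromatin. Together they covered 479 Mb, or 19.5% of the autosomal extent, with 4.25 protein-coding genes per Mb, against 4.66 under loops of 500 to 1000 kb, 8.73 under loops of up to 500 kb and 8.40 over all autosomes. The median loop held 2 whole genes between its anchors (quartiles 1 and 5), 62 loops (15.3%) held none, and the fullest held 68. By loop, the median for the 46 loops with gene ends at both anchors was 4.11 whole genes per Mb between the anchors. It was 1.80 for loops with a gene end at 1 anchor and 1.15 for those with none. These medians and the autosomal density, which counts every gene and not only whole ones, are unlike measures. Pooled over the length they covered, the 46 loops had 8.25 genes per Mb, close to the 8.40 of all autosomes. Loops with gene ends at neither anchor had 2.75. The 46 were chosen for having genes at their anchors, so this order is a description. Of the 810 anchors, 613 had no gene end, and the nearest one lay at a median distance of 47.7 kb from these. It was more than 100 kb away from 182 of them.

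Developmental regulators sat at both anchors of 5 loops over 1 Mb (1.23%, 0.528 to 2.86%), against a background of 0.135% for loops up to 1 Mb (6 of 4453, 0.0618 to 0.294%). All 5 joined transcription factor genes. By pixel size the counts were 3 of 194 over 1 Mb at 25 kb (1.55%, 0.527 to 4.45%), against 0 of 442 up to 1 Mb, which allows a share of up to 0.679%. At 10 kb they were 2 of 202 over 1 Mb (0.990%, 0.272 to 3.54%), against 4 of 2755 up to 1 Mb (0.145%, 0.0565 to 0.373%). Within a pixel size the intervals therefore overlapped. The same 5 loops were counted with widened anchors and with any overlap of the gene record. Loops up to 1 Mb then gave 16 (0.359%, 0.221 to 0.583%) and 20 (0.449%, 0.291 to 0.693%), whose intervals also overlapped that of the long loops. With start sites, 3 of 405 long loops (0.741%, 0.252 to 2.15%) and 6 of 4453 up to 1 Mb (0.135%, 0.0618 to 0.294%) were counted, again with overlapping intervals. At a single anchor, regulators sat in 12 loops over 1 Mb (2.96%, 1.70 to 5.11%), close to the background of 2.52% for loops up to 1 Mb. A higher share over 1 Mb was thus seen for loops with a regulator at each end, on 5 loops, and not for those with a regulator at 1 end. The pooled intervals stood apart under the rule of gene ends alone.

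The longest and highest scoring of the 5 joined the Dlx1 and Dlx2 genes to the end of the Hoxd cluster on chromosome 2. Dlx1 and Dlx2 are homeobox genes of forebrain interneurons, and Hoxd13 is the Hox gene of digits and external genitalia, beside the homeobox gene Evx2. The anchors, chr2:71525001-71550000, which also holds an end of the peptidase gene Metap1d, and chr2:74650001-74675000, lay 3125 kb apart at 25 kb pixels. The peak score was 9.63, at percentile 98.7 of autosomal loops of that pixel size, while the pixel value of 10.1 was at percentile 17.6. Between the anchors lay 17 whole genes, among them Sp9, a zinc finger gene of the developing limb and forebrain.

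The 2 loops of 10 kb pixels were close to the limit of 1 Mb. Nkx2-1, the homeobox gene of thyroid, lung and ventral forebrain (chr12:56530001-56540000), was joined over 1010 kb to Foxa1, a pioneer factor of endoderm (chr12:57540001-57550000), at an anchor that also holds an end of Ttc6. The peak score was 5.04, at percentile 83.3. Hmx2 and Hmx3, neighbouring homeobox genes of the inner ear (chr7:131540001-131550000), were joined over 1050 kb to the homeobox gene Nkx1-2 (chr7:132590001-132600000), with a peak score of 4.21 at percentile 60.0. With start sites in place of gene ends, the 3 loops described here remained.

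The 6 loops of up to 1 Mb with regulators at both anchors spanned 160 to 630 kb. They joined Nkx2-1 to Pax9, En2 to Shh, Pax2 to Tlx1, Lbx1 to Fgf8, Irx3 to Irx5 and Irx2 to Irx4, with peak scores of 4.04 to 6.67. The 5 loops over 1 Mb scored 4.21 to 9.63, so the ranges overlapped. The shorter set includes 2 pairs of Irx genes, each pair from 1 cluster. Its other 4 loops, with the secreted signals Shh and Fgf8 among their genes, joined different families. Of the 3 longer loops described here, Nkx2-1 to Foxa1 joined a homeobox gene to a forkhead gene. The others joined homeobox genes to homeobox genes.

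The loops nested inside these 3 took different shapes. Inside the loop from Dlx1 and Dlx2 to Hoxd13 lay 8 loops, of which 4 ran to the Hoxd anchor and none to the Dlx anchor. The 4 spanned 360, 590, 705 and 1080 kb, with peak scores of 3.98, 4.62, 3.79 and 3.80, and had no gene end at their far anchors. None of the 4 loops inside Hmx2 and Hmx3 to Nkx1-2 shared an anchor with the long loop.

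Nkx2-1 to Foxa1 was the one loop among these with a chain of shorter loops from 1 end to the other. Of its 6 nested loops, 2 shared the lower anchor and 2 the upper. A loop of 160 kb (peak score 5.67) ran from Nkx2-1 to Pax9, a paired-box gene of the pharyngeal pouches that lies between the anchors together with the homeobox gene Nkx2-9. A loop of 850 kb (8.57) ran from the next 5 kb bin to Foxa1. These anchors did not overlap, and were linked by the 10 kb anchor of another nested loop, of 290 kb (3.58), which covers both bins. The loops of 160 and 850 kb both scored higher than the long loop's 5.04, but at 5 kb pixels, where scores ran higher throughout. The long loop lay in turn inside a loop of 3225 kb (4.61) from Ralgapa1 to Gemin2 and Trappc6b, which held 13 loops.

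**Figure D4:**
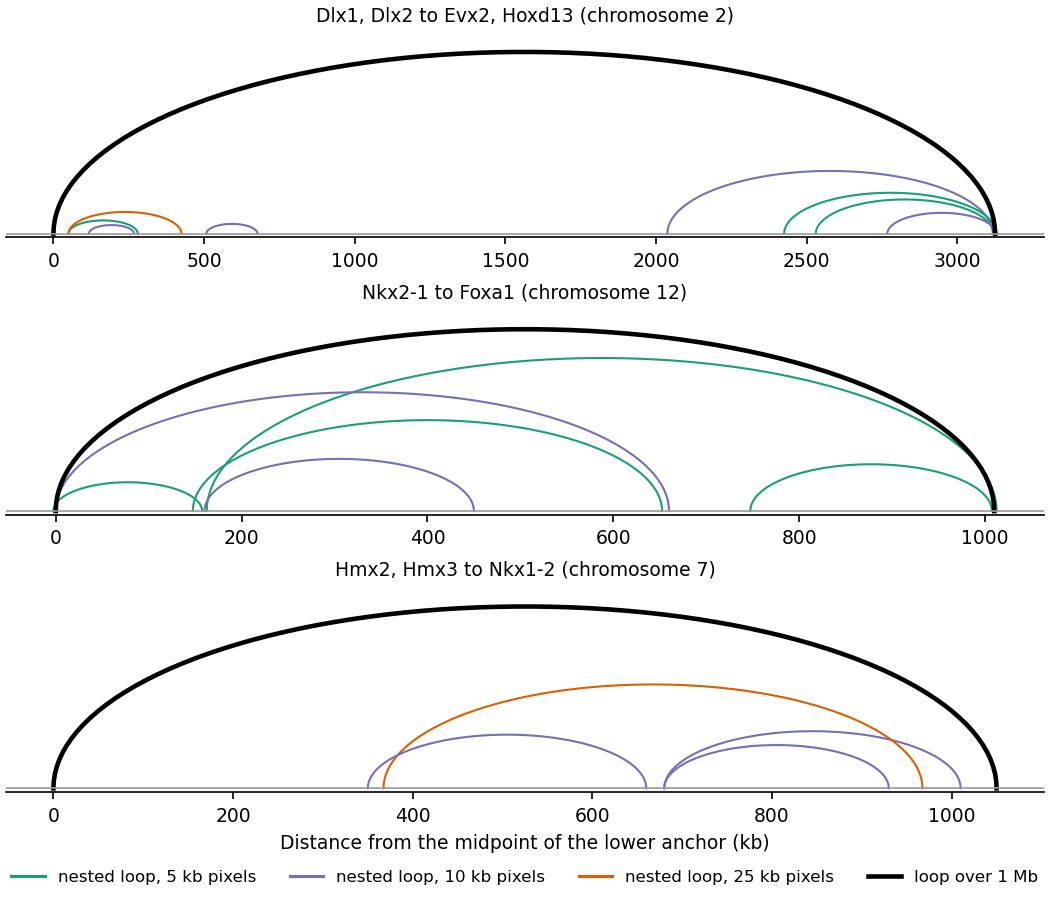
The 3 loops over 1 Mb with the start site of a developmental regulator at both anchors (black arcs, 1 panel each) and the listed loops nested inside them (coloured by pixel size), along the distance in kb from the midpoint of the lower anchor. Arc height is drawn in proportion to span within a panel. Nested loops meet the long loop at the Hoxd13 end of the first panel, at both ends of the Nkx2-1 to Foxa1 panel, and at neither end of the Hmx2, Hmx3 to Nkx1-2 panel.

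At a single anchor, 11 regulators took part in 12 loops. The highest scores were 9.32 for Hoxa6, a Hox gene of the trunk, over 1025 kb, and 8.90 for Bhlhe22, a bHLH gene of neurons, over 1010 kb, both of 5 kb pixels. The Hoxa6 loop enclosed 10 whole genes, among them Hoxa2, Hoxa4 and Hoxa5, and 6 nested loops, and the Bhlhe22 loop had none nested. Gata3, a zinc finger factor of trophectoderm and T cells, had a loop of 1210 kb (6.27) with neither a whole gene nor a listed loop inside.

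Dlx5, a homeobox gene of the branchial arches and limbs, had 2 loops running to lower coordinates, of 1230 kb (6.10) and 1020 kb (4.17), both across its partner Dlx6. Sox6, a gene of cartilage development, was at the end of a loop of 1125 kb (4.47), and the nuclear receptor gene Nr2f1 of one of 1375 kb (3.81). Evx2 had its own loop of 1080 kb (3.80), already counted inside the Dlx loop. In 3 cases the far anchor held a gene end of another kind. Prdm8 was joined to Paqr3 over 1070 kb (4.13), Tbx3 to Spring1 over 1425 kb (3.997), and Sp8, with Abcb5, to Cdca7l over 1025 kb (3.53).

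In all, 22 of the 456 matched autosomal regulators (4.82%, 3.21 to 7.20%) had an end at an anchor of a loop over 1 Mb, against a background of 1.17% of autosomal protein-coding genes (242 of 20661). Genes of a cluster share anchors, so these are fewer than 22 independent sites. Homeobox genes outside the Hox clusters gave 8 of 127, the Hox and ParaHox list 3 of 47, forkhead and Gata genes 3 of 32, T-box, Pax and Sox genes 2 of 35, bHLH genes 2 of 51 and other developmental transcription factors 4 of 90. Signalling genes gave 0 of 74, which allows a share of up to 4.05%, although 21 of them (28.4%) had an end at an anchor of a loop of some span, beside 26.3% of all regulators and 9.19% of all autosomal coding genes.

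Among the other lists, 3 of 47 pluripotency genes had an end at an anchor of a long loop. Klf4, a reprogramming factor, had a loop of 1160 kb (4.19) with no whole gene between its anchors, Zfp42, a marker of the naive state, was joined to the cadherin gene Fat1 over 1625 kb (3.88), and Tbx3 belongs to both kinds of list. Of the ribosomal protein genes 3 of 63 were there, Rpl37, Rpl30 and Rpl37a, with loops of 1120, 2925 and 1120 kb. Of 27 cohesin and CTCF genes the single one was Pttg1 (securin), the inhibitor of separase, joined with Slu7 over 2700 kb (4.77) to an anchor holding ends of Ccng1, Hmmr and Nudcd2. Polycomb genes gave 0 of 34, imprinted genes 0 of 33 and housekeeping genes 0 of 35, which allow shares of up to 8.82%, 9.09% and 8.57%. At these list sizes, none of these counts of 0, nor that of the signalling genes, could be told from the background of 1.17%.

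Most long loops enclosed shorter ones. Of the 405, 310 (76.5%, 72.2 to 80.4%) had at least 1 other listed loop inside, with both of its anchors within their outer bounds, and 95 had none. The median was 2 nested loops (quartiles 1 and 3) and the most was 16. In 144 loops (35.6%, 31.0 to 40.3%) a nested loop shared an anchor with the long loop, in 25 of these at both ends, and in 3 a chain of 2 nested loops led from 1 end to the other. Nkx2-1 to Foxa1 was one, in which the 2 nested loops met through the anchor of another. The other 2 had no gene end at either anchor: a loop of 1120 kb on chromosome 17 across Runx2, the regulator of bone formation, and one of 2200 kb on chromosome 4.

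The nested loops numbered 713 (14.7% of autosomal loops) and had a median span of 470 kb. They included 607 of the loops up to 1 Mb (13.6%) and 106 of the loops over 1 Mb. Shorter loops were somewhat sparser under the long ones: loops of up to 1 Mb were centred there at 1.55 per Mb, against 1.87 per Mb elsewhere on the autosomes. At 25 kb pixels the number nested went with span (Spearman's rho 0.394, 194 loops). A longer loop has more room for nested ones, and no rho was computed for their number per Mb. At 10 kb pixels the rho was 0.0346 (202 loops). Whole genes per Mb between the anchors had a rho with span of -0.00789 at 25 kb and -0.176 at 10 kb pixels. The median number of nested loops per Mb was 1.29 at 25 kb and 0.971 at 10 kb pixels.

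**Figure D5:**
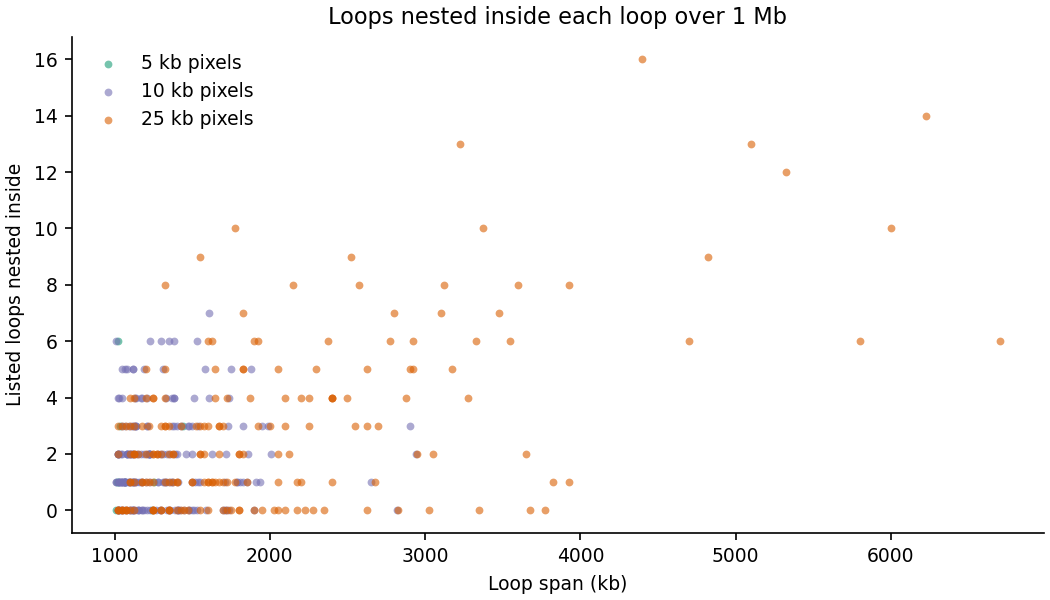
Number of listed loops nested inside each of the 405 loops over 1 Mb (vertical axis) against its span in kb (horizontal axis), coloured by pixel size. The highest point, 16 nested loops, is the loop of 4400 kb from Cryzl1, Donson and Son to Brwd1, and the longest loop, of 6700 kb, holds 6.

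Of the 10 loops with most inside, 6 were among the 10 longest, which also have the most room. A loop of 4400 kb on chromosome 16 held 16 loops and 32 whole genes, among them Runx1, Erg and Sim2, regulators of blood, endothelium and the nervous system. It ran from an anchor with Cryzl1, Donson, a replication factor gene, and Son, a splicing cofactor gene, to Brwd1, a bromodomain gene, with a peak score of 4.10. The Brwd1 anchor (chr16:96075001-96100000) had another long loop on its other side, of 1875 kb (5.00) to Zbtb21. A loop of 6225 kb on chromosome 13 to Dimt1 and Ipo11 held 14, and one of 5100 kb on chromosome 14 held 13 and crossed the zinc finger genes Zic2 and Zic5. The longest of all, 6700 kb on chromosome 8 from Got1l1, held 6 and crossed Nrg1, which encodes a growth factor of nerve and heart. The loop of 4825 kb on chromosome 10 joined Asf1a, a histone chaperone gene, to Ranbp2, a nuclear pore gene, with a score of 6.80 and 9 nested loops.

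The 10 highest scoring loops and the 10 with most nested loops had no loop in common. With 10 of 405 loops in each set, few or none would be shared without any relation, so this is a description. The 3 highest peak scores over 1 Mb were 32.8 for a loop of 1950 kb on chromosome 4 to the zinc finger gene Zfp982, 20.7 for one on chromosome 8 of 1060 kb without gene ends, and 16.0 for one of 1025 kb on chromosome 14 from Klhl33 to Ndrg2, Rnase13 and Tppp2. They had 0, 1 and 2 nested loops. The lowest score, 2.95, belonged to a loop of 1775 kb on chromosome 4 from Zmpste24, the prelamin A protease gene, to Cap1 and Ppt1. It held 10 loops, 5 of them over 1 Mb.

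Long loops seldom shared anchors with one another. Their anchors merged into 762 sites, of which 42 (5.51%) had 2 or more long loops and 3 had 3 or more. At 20 of the 42 all long loops ran to higher coordinates and at 20 all ran to lower ones. Of the 2 sites with long loops on both sides, one was that of Brwd1. Another long loop was held by 95 of the 405, while 106 lay inside another and 87 crossed another.

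The deepest nesting was a set of 6 loops on chromosome 3, each inside the one before. They spanned 3925, 3550, 3175, 2400, 1700 and 1100 kb, with peak scores of 7.57, 7.69, 5.98, 5.89, 4.65 and 4.81. The inner 5 ended at the same upper anchor (chr3:113075001-113100000), the outermost at the bin next to it, and neither those anchors nor the lower ones held a gene end. Their lower anchors thus stepped outward from a common end, with scores higher in the 2 longest than in the others. The Lsamp anchor on chromosome 16, of a neuronal cell adhesion gene, had 4 long loops of 1200 to 1825 kb, all to higher coordinates and with lower scores, of 3.27 to 4.49.

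Non-coding genes also lay at these anchors. Of 12408 autosomal long non-coding RNA records 109 (0.878%) had an end there, in 94 loops, and 41 of those loops had no coding gene end. Of miRNA genes 8 of 1136 (0.704%) were at an anchor. Coding genes gave 1.17%. No intervals were computed for these 2 shares and record lengths were not matched, so the lower values cannot be read as a depletion. Among the 8 miRNA genes was Mir137, of a miRNA best known from the nervous system. It lay at the lower anchor (chr3:118425001-118450000) of a loop of 2625 kb with a peak score of 3.40, no coding gene end and no nested loop. Its mature 3p form, shown because neither anchor of this loop holds a coding gene end, is given from RefSeq with its seed (bases 2 to 8) in capitals.
mmu-miR-137-3p: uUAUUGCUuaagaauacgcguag
The sequence lies at chr3:118433901-118433923 on the plus strand of GRCm38.p6.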

How the data were processed

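Micro-C libraries were made from 2 samples of 1 group, siControl, represented by 1 loop list. Build mm10 and Juicer 1.5.6 are named by the submitters' processing notes. Which caller was run, with what thresholds and map normalization, and whether samples were pooled is not given in the sources used here. Column order matches the output of the SIP caller, from which the meanings below were inferred.

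The deposited anchor starts and ends (other values, in bp) were turned into 1-based coordinates. The authors' deposited peak score and regional score have no stated scale, and the deposited fraction beside them lay between 0.964 and 1. The deposited signal of the peak pixel comes from the authors' contact map, and 4 deposited values (other) describe its neighbourhood and were not used. Depth is unknown, so precision is limited to counting intervals. Both scores and pixel values served for description and ranking among listed loops only.

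From these, loops on chromosomes 1 to 19 with a span over 1 Mb were taken, and gene ends were placed in anchors with a minimum overlap of 1 bp, using a RefSeq table of GRCm38.p6 (20661 autosomal protein-coding records). That table has no strand, so the planned rule of start sites was replaced by either end of the record. Start sites were available for 79.6% of genes, those with a listed promoter. Of 461 entries in 7 developmental lists, 456 matched, and 6 further lists were used. The members and the lists were chosen with earlier results of these data known.

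Genes named are those at loops with regulators at both anchors or at 1 anchor, at the 10 longest, 10 highest scoring and 10 fullest loops, at the 5 sites with most long loops, and up to 8 members of each other list. Loops that cross or chain were named after their values were seen. Shares carry Wilson 95% intervals, and medians 95% intervals from order statistics. A count of 0 is given the limit of 3 counts. No p-values were computed, since loops are not replicates. Scripts were tested on simulated loops (Python 3.11.15, pandas 2.3.3, numpy 2.4.6, scipy 1.17.1, networkx 3.6.1). CTCF motifs need a genome sequence and were not analysed here. Loops whose description needs certain genes are counted but not reported here.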

Additional observations from a re-analysis of the deposited data

Results flagged for a closer look

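The X chromosome, outside the autosomal set described above, also held loops over 1 Mb. They numbered 13 of its 124 loops (10.5%, Wilson 95% interval 6.23 to 17.1%) and spanned 1050 to 2275 kb. On the autosomes the share was 8.34%, inside that interval.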

How the results depend on the processing

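No paired analysis was possible because both samples share a single list without sample values, which also prevented leaving out either replicate. Of 46 alternative values, 26 kept within the interval of the value reported (for counts, within 1.5 times) and 20 moved, and no cause was tested beyond the narrower or wider set of loops each takes. A limit of 1.5, 2 or 0.8 Mb gave 159, 75 or 635 loops, and taking 25 or 10 kb pixels alone gave 194 or 202. Gene ends at both anchors (11.4%) became 18.7% over 2 Mb, 8.50% over 0.8 Mb, 20.1% at 25 kb pixels, 3.47% at 10 kb pixels, 31.1% with any overlap of the gene record and 5.19% with start sites. The share with a nested loop (76.5%) became 80.5%, 81.3% or 71.0% at limits of 1.5, 2 or 0.8 Mb, 65.4% when only loops with both anchor midpoints between the inner edges of the long loop's anchors counted, and 53.3% for nested loops of the same pixel size. Longer loops have more room for a nested loop, so the change of this share with the limit is a description. The median peak score (4.52) became 4.80 over 1.5 Mb, 4.99 over 2 Mb and 4.95 among loops at or above the median score of their pixel size. The share of regulators at an anchor (4.82%) became 7.46% with anchors widened by 5 kb. Regulators at both anchors kept between 0.741% and 1.89% under every alternative run, within the interval of the 1.23% reported. The alternatives with start sites, with widened anchors for the gene lists and without the 10 highest scores were chosen after seeing the data. Either gene end as an alternative to start sites was not run, since it became the rule used.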

Other observations

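Members of receptor and zinc finger gene families, many of which lie in tandem clusters, were counted at the ends of the long loops. Of 1104 autosomal olfactory receptor genes (Olfr), 7 had an end at an anchor of a loop over 1 Mb (0.634%), of 354 vomeronasal receptor genes (Vmn) 1 did (0.282%), and of 391 zinc finger genes named Zfp 4 did (1.02%), beside 1.17% of all autosomal protein-coding genes. The 7 olfactory receptor genes took part in 5 loops, 1 of which had such genes at both anchors. These families were chosen after the data were seen, and their genes share clusters, so the counts are descriptions.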
